A study of Mus musculus with 28 samples.

Results

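The mixed day-60 sort joined labelled cells of the mouse olfactory bulb, labelled cells of the subependymal zone (SEZ) and oligodendrocytes caught with an antibody to the O4 antigen. It was set against a sort of labelled SEZ cells alone, taken at the same time after labelling. Members were chosen by label and by depth: the 4 mixed libraries and the 4 SEZ day-60 libraries, and in them every well with at least 1000 estimated transcripts. This left 314 cells in the mixed sort (83, 81, 74 and 76 per library) and 349 cells in the SEZ sort (89, 85, 89 and 86), out of 1789 such cells in the 28 libraries of the series. All mice were Bl/6. Those that gave tdTomato-positive cells carried a tamoxifen-inducible Cre recombinase in the Mki67 gene (Ki67-iresCreER) and a Cre-dependent tdTomato reporter in Rosa26. The sample descriptions name this strain for the tdTomato-positive cells and give no separate genotype or treatment for the O4-positive ones. A single dose of 5 mg tamoxifen labels cells that are dividing at that time, together with their later progeny, and tdTomato-positive cells were taken after 60 days in both sorts. The label therefore follows descent from cells expressing Mki67, in whatever type they have since become, and the O4-positive cells were added by antigen. Ages ran from 8 to 19 weeks in the mixed sort and from 16 to 19 weeks in the SEZ sort. The labels tie no well of the mixed sort to bulb, SEZ or O4 gate, so differences of tissue, gate and age cannot be told apart. They also give no number of mice, and each sort holds as many wells as a single plate, so p-values over libraries may measure only technical spread.

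Stem cells of the SEZ, which carry many astrocyte genes, divide and give rise to neuroblasts that migrate to the olfactory bulb. There they mature into GABA-releasing interneurons, the granule and periglomerular cells, some of which make dopamine or calretinin. Oligodendrocytes arise from precursors marked by the growth factor receptor PDGFRA and wrap axons in myelin, a membrane stack rich in cholesterol, galactolipids and a few abundant proteins. The O4 antibody binds sulfatide, one of these lipids, on late precursors and oligodendrocytes. Olfactory ensheathing cells are the glia of the olfactory nerve and the outer layer of the bulb.

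Median transcripts per cell were 4973, 3629, 4760 and 5558 in mixed libraries 1 to 4, against 4879, 5153, 5172 and 4977 in SEZ libraries 1 to 4, a difference of -315 in the mean of the medians (2-sided exact permutation test of 4 against 4 libraries, p = 0.571). Spike-in (ERCC) RNA took 11.7% to 15.6% of transcripts in the mixed libraries and 7.56% to 8.51% in the SEZ libraries. The names of the deposited tables place both sorts on 1 sequencing flow cell. In a test of transcripts summed over the cells of each library, 3528 of 8152 genes passed (limma voom, Benjamini-Hochberg adjusted p below 0.05), or 43.3%. In the mixed sort 1806 genes were higher (22.2% of those tested) and 1722 lower (21.1%). All 4 mixed libraries stood above all 4 SEZ libraries for 19.8% of tested genes and below them for 19.7%. Scaling by spike-in RNA in place of the usual trimmed mean moved the median log2 fold of all genes to -0.70 and the calls to 798 higher and 4233 lower, and scaling by library totals moved the median to 0.13. Folds below are therefore relative to the bulk of genes. In such sums, fewer cells of a type and less RNA per cell cannot be told apart. The filter on low values asks for a minimum level in at least 4 libraries. Genes nearly absent from 1 sort passed that filter only through the other sort, and could be called higher only there. Counts and medians over gene lists below are therefore a description, and stand beside the shares of all tested genes given here.

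The mixed sort consisted mostly of oligodendrocyte-like and neuron-like cells, while the SEZ sort consisted mostly of cells with stem cell and astrocyte genes. Classes were rebuilt from marker genes after clustering all libraries together. Oligodendrocyte-like cells made up 44.6%, 39.5%, 37.8% and 36.8% of cells in mixed libraries 1 to 4, and 0%, 1.18%, 1.12% and 0% in SEZ libraries 1 to 4. Mature neuron-like cells made up 23.6% ± 1.63 of mixed cells and 1.15% ± 0.0272 of SEZ cells (SD, n = 4 libraries each). Oligodendrocyte precursor-like cells made up 5.38% ± 0.969 of mixed cells and 0 of 349 SEZ cells, which allows a share of up to 0.860%. Microglia-like cells made up 8.68% ± 2.57 of mixed cells and 2.01% ± 1.11 of SEZ cells. NSC-like cells, a name that covers neural stem cells (NSCs) and astrocytes, made up 1.94% ± 1.30 of mixed cells and 68.2% ± 3.21 of SEZ cells. Clusters left unnamed held 58 mixed and 70 SEZ cells. Of these, 20 and 31 lay in a cluster led by Agt, Islr and Slc6a9, which carried NSC-like markers. Choroid plexus-like cells numbered 0 of 314 in the mixed sort, which allows up to 0.955%, against 11 of 349 in the SEZ sort, 7 of them in SEZ library 1. The mean difference in the choroid plexus-like share was -3.11 percentage points, and -1.53 without that library. Each of these 6 differences separated the libraries fully and had p = 0.0286 in a 2-sided exact permutation test, the smallest p that 4 against 4 libraries allow (adjusted p = 0.0381 over 8 classes). Endothelial-like cells (1.62% ± 2.50 in the mixed sort and 4.28% ± 2.64 in the SEZ sort) did not pass (exact permutation test, adjusted p = 0.229), nor did neuroblast-like cells, with 2 cells in each sort. With the cells of the 2 sorts clustered alone the neuroblast-like difference was 5.57 percentage points (exact permutation test, adjusted p = 0.0327). Of the 23 mixed and 6 SEZ cells of that neuroblast-like cluster, which Calb2 led, 21 and 4 are counted here as mature neuron-like. The microglia-like share did not pass at a minimum of 2000 transcripts per cell (difference of 2.12 percentage points, exact permutation test, adjusted p = 0.114), and the 27 mixed cells of that class had a median of 2245 transcripts, against 7182 in the 7 SEZ cells. The NSC-like difference was -66.3 percentage points, but -57.4 with the 2 sorts clustered alone and -58.8 at that minimum. In these 2 settings a cluster led by Islr, with 20 and 19 mixed cells and 0 SEZ cells, was named NSC-like. Oligodendrocyte-like cells of the mixed sort were spread evenly over the wells, with 38, 45 and 42 of them in the first, middle and last 32 cell barcodes.

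**Figure D1:**
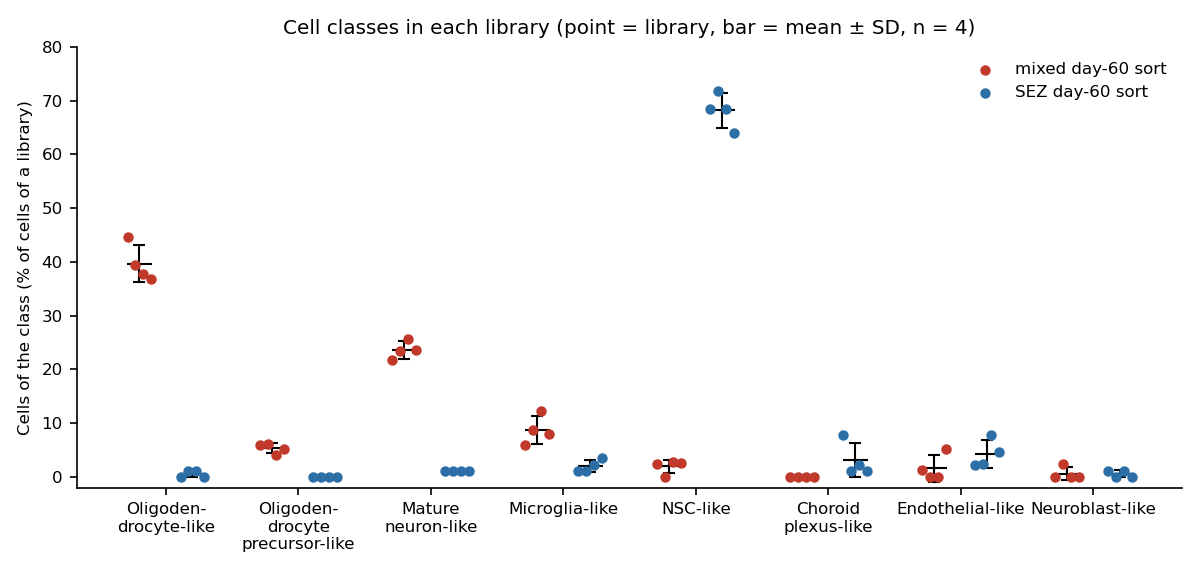
Share of each cell class among the cells of a library (vertical axis, percent), mixed day-60 libraries left of SEZ day-60 libraries. Points are libraries and bars show the mean ± SD of 4. Oligodendrocyte-like cells lie between 36.8% and 44.6% in the mixed libraries and at most at 1.18% in the SEZ libraries, and NSC-like cells lie at or below 2.70% in the mixed libraries and average 68.2% in the SEZ libraries.

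Among the gene lists, that of myelin held the most higher calls. Of 40 listed genes of compact myelin and oligodendrocyte structure, 39 passed the filter on low values; 37 were higher in the mixed sort, 0 were lower and the median log2 fold was 4.72, beside 0.00 over all tested genes. Mog, a glycoprotein of the outermost myelin layer (chr17:37010743-37023398 in GRCm38), had 929, 962, 783 and 812 CPM (transcripts of the gene per 1000000 of the scaled library total) in the mixed libraries, against 2.10, 12.8, 29.7 and 0 CPM in the SEZ libraries. The groups lay far apart (log2 fold 7.18 ± 0.71 SE, limma voom adjusted p = 5.58e-07). The higher SEZ values were those of libraries 2 and 3, which held the sort's 2 oligodendrocyte-like cells, and these 2 cells gave 90.2% of Mog transcripts of the SEZ sort. Mbp (myelin basic protein), Mal, Mag and Cldn11, which encodes the tight-junction protein of myelin, had log2 folds of 6.02, 6.09, 6.63 and 7.33, all with libraries that did not overlap. Fa2h and Ugt8a, enzymes that make the galactolipids of myelin, averaged 419 ± 62.5 and 629.6 ± 86.2 CPM in the mixed libraries and 4.41 ± 5.47 and 13.5 ± 16.7 CPM in the SEZ libraries. The list members that did not pass were Enpp2, which the choroid plexus also expresses and which reached 5006 CPM in SEZ library 1, and S100b, which astrocytes share. Without that library Enpp2 was higher (1.02, adjusted p = 2.16e-04).

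Regulators of the oligodendrocyte lineage followed with 11 of 12 tested genes higher and 1 lower (median log2 fold 3.92). Sox10, the transcription factor that directs oligodendrocyte identity (chr15:79154908-79165240), had 837, 1200, 687 and 635 CPM in the mixed libraries and 0, 8.47, 6.72 and 0 CPM in the SEZ libraries (log2 fold 8.06 ± 0.89, limma voom adjusted p = 1.79e-06). Myrf, which switches on myelin genes, reached a log2 fold of 7.25 ± 0.69, and Olig1 one of 4.01 ± 0.22. Tcf7l2, a Wnt effector active in differentiating oligodendrocytes, was the exception, averaging 48.6 CPM in the mixed libraries against 163 CPM in the SEZ libraries, without overlap (log2 fold -1.79 ± 0.27). Its level was 23.9 CPM in the 125 oligodendrocyte-like cells and 242 CPM in the 17 precursor-like cells of the mixed sort, and 194 CPM in the 148 SEZ cells of the NSC-like cluster led by Crym. Mobp, a small basic myelin protein (chr9:120149707-120181484), had 1017, 1028, 795 and 889 CPM in the mixed libraries and 0, 12.8, 25.1 and 2.12 CPM in the SEZ libraries (log2 fold 7.33 ± 0.72). Its promoter window is printed because it repeats SOX-type letters. RefSeq places this window around its start at chr9:120149492-120149791 on the plus strand of GRCm38.p6. Capitals mark ACAAAG or its reverse complement CTTTGT, the core recognised by SOX factors, which occurs 6 times here and at least once in 18.7% of all 32851 such windows of the RefSeq table:
Mobp: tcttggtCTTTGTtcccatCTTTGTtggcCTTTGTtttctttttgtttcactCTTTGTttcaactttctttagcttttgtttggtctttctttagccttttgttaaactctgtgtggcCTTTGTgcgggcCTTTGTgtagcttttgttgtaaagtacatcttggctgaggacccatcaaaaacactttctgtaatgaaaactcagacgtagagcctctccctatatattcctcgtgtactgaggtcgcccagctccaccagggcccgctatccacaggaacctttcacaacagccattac
Of the 40 listed myelin genes, 29 had a window and 9 of these held the letters at least once. With under 80% of the list matched, no comparison of that share with all genes is made. How many other windows repeat the letters as often as that of Mobp was not counted. A match describes the letters of the window and is not a measured binding site.

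Etv1 showed where a list name and the measured cells part. It is listed as a fate gene of bulb interneurons and had 444, 322, 390.3 and 558 CPM in the mixed libraries against 67.5, 61.5, 49.3 and 23.3 CPM in the SEZ libraries (log2 fold 3.15 ± 0.27). Of its transcripts in the mixed sort, 60.2% lay in oligodendrocyte-like cells, at 676 CPM, beside 755 CPM in the Th-led and 401 CPM in the Calb2-led neuron-like cells.

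Precursor genes were higher for 11 of 13 tested members (18 listed), with 1 lower and a median log2 fold of 4.15. Members nearly absent from the SEZ libraries, such as Bcas1, passed the filter only through the mixed libraries. Summed over the list, the level overlapped between the sorts, at 1194 to 2092 CPM in the mixed libraries and 1214 to 1549 CPM in the SEZ libraries. Pdgfra (chr5:75152292-75198215) had 266, 246, 107 and 86.8 CPM in the mixed libraries and 6.30, 71.3, 0 and 38.5 CPM in the SEZ libraries (log2 fold 3.60 ± 0.91, limma voom adjusted p = 0.00417). The carriers differed between the sorts: 90.5% of Pdgfra transcripts of the mixed sort came from the 17 precursor-like cells, and 90.9% of those of the SEZ sort from the 10 SEZ cells of a cluster led by Vtn, Dcn and Npy, 9 of which had Dcn, a gene of fibroblasts. All 17 precursor-like cells had Gpr17, a receptor of precursors about to differentiate, and 15 of them also had Pdgfra, while 6 had Bmp4. Gpr17, Pdgfra and Bmp4 were among the markers that named the class, so their detection there is a description. Mog was found in 7 of these 17 cells at 197 CPM, and in 17 of 58 Calb2-led neuron-like cells at 80.2 CPM, so its share in precursor-like cells cannot be read as expression. Bcas1, a marker of oligodendrocytes that have begun to myelinate, averaged 174 ± 76.9 CPM in the mixed libraries and 1.65 ± 2.14 CPM in the SEZ libraries. Ptprz1, a phosphatase shared by precursors and stem cells, was the lower member (log2 fold -1.55 ± 0.21). Enpp6, an enzyme of newly formed oligodendrocytes, was found in 32 of 125 oligodendrocyte-like cells (25.6%), against 0 of 58 Calb2-led and 1 of 16 Th-led neuron-like cells of the same sort, while Opalin, a marker of mature ones, was found in 115 of 125, against 12 of 58 (20.7%) and 7 of 16 (43.8%). Opalin was among the markers that named the oligodendrocyte-like class.

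**Figure D2:**
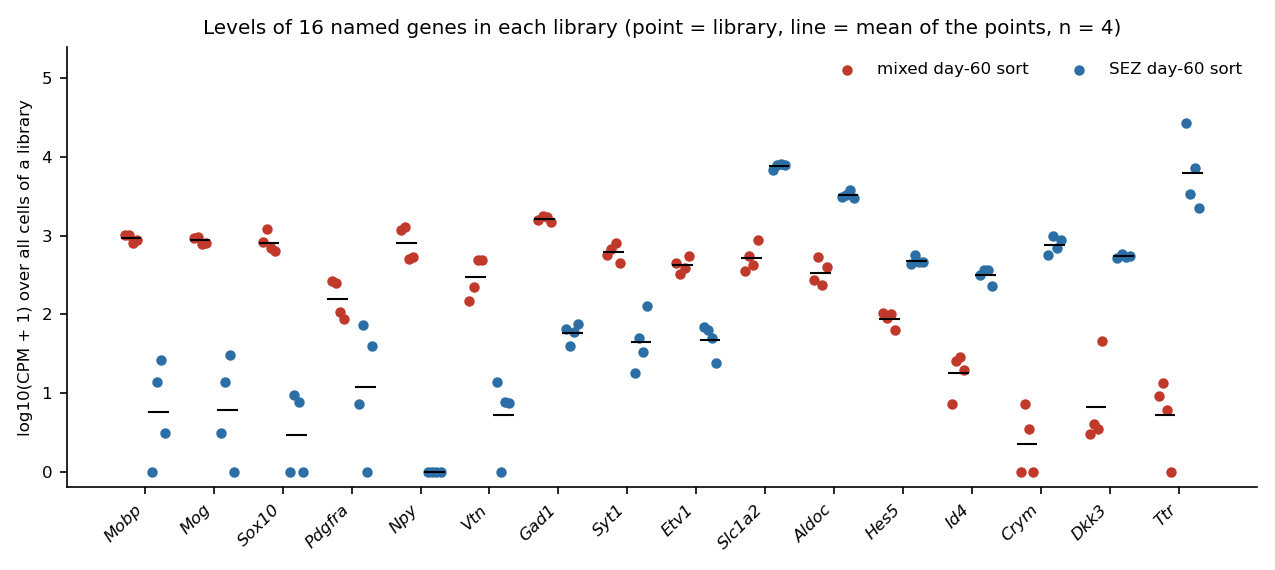
Levels of 16 genes over all cells of a library, as log10(CPM + 1), mixed libraries left of SEZ libraries. Each point is a library and each line the mean of 4 points. Mobp, Mog, Sox10, Pdgfra, Npy, Vtn, Gad1, Syt1 and Etv1 lie higher in every mixed library, and the remaining genes lower in every mixed library, with the widest spread among SEZ libraries in Mobp, Mog and Pdgfra.

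The neuron-like cells of the mixed sort carried the genes of GABA-releasing bulb interneurons. Gad1, the main enzyme of GABA synthesis (chr2:70553072-70602014), had 1597, 1802, 1748 and 1477 CPM in the mixed libraries against 38.8 to 74.2 CPM in the SEZ libraries (log2 fold 4.81 ± 0.19, limma voom adjusted p = 3.94e-11). All 74 neuron-like cells of the mixed sort had Gad1 transcripts. Gad1 was among the markers that named this class, so its detection there is a description. Of the 74 cells, 0 had Slc17a6 or Slc17a7, the transporters of glutamate-releasing neurons, or Eomes or Tbr1, genes of the bulb's projection neurons. Other listed genes that projection neurons can express were found in few cells: Tbx21 and Reln in 1 each, Doc2g in 4 and Cck in 7 of 74. In oligodendrocyte-like cells Doc2g was found in 0 and Cck in 2 of 125. Synaptic vesicle and release genes were higher for 16 of 19 tested members, with 0 lower (median log2 fold 2.21). Among them Syt1, the calcium sensor of release, averaged 629 ± 154 CPM in the mixed libraries and 56.3 ± 49.4 CPM in the SEZ libraries, and Snap25, part of the fusion machinery, 905 ± 125 and 69.1 ± 23.6 CPM. The GABA list split, with 8 of 15 tested members higher and 5 lower. Slc32a1, the vesicular GABA transporter, was higher (log2 fold 3.07 ± 0.32), while Gabbr1, a GABA-B receptor subunit, was lower (-1.29 ± 0.15). Interneuron fate genes were higher for 9 of 13 tested members with 0 lower, led in level by Meis2 (log2 fold 1.66 ± 0.15) and including Dlx1 (4.71 ± 0.71). Mature neuron markers were higher for 17 and lower for 3 of 24, and neuroblast markers were higher for 10 and lower for 3 of 22. The list counts of this paragraph are over whole libraries and stand beside 22.2% higher and 21.1% lower of all tested genes. Summed over the neuroblast list, the level in the mixed sort was 6482 CPM in neuron-like, 7499 CPM in precursor-like and 5495 CPM in oligodendrocyte-like cells. The neuroblast calls are therefore not particular to the neuron-like cells. Among the neuroblast markers Stmn1 rose (log2 fold 3.10 ± 0.19) and Dclk1 fell (-1.67 ± 0.12).

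Bulb interneurons divide into subtypes, and these were counted as neuron-like cells with a transcript, beside the share in oligodendrocyte-like cells of the same libraries as a measure of background. Neuron-like cells had a median of 6027 transcripts, with 9479 in the cluster led by Th and 5337 in the one led by Calb2, and oligodendrocyte-like cells one of 4842. Of the 33 listed subtype genes, 13 were tested over whole libraries; 12 were higher and 1 lower. Th, tyrosine hydroxylase, the first enzyme of dopamine synthesis (chr7:142892752-142931128), had 464, 12.3, 507 and 369 CPM in the mixed libraries and 21.4, 0, 0 and 0 CPM in the SEZ libraries, and was not tested because it fell under the filter, which asks for at least 4 libraries above the minimum level and found 3. Mixed library 2 stood apart from the other mixed libraries. It held 0 of the 16 cells of the neuron-like cluster led by Th and Trh, which contributed 6, 5 and 5 cells to mixed libraries 1, 3 and 4, whereas the neuron-like cluster led by Calb2 and Pcp4 contributed 12, 19, 14 and 13. These genes define the clusters, so their levels there are a description. In the Th-led cluster Th stood at 3439 CPM and was found in 16 of 16 cells, against 165 CPM and 21 of 58 cells (36.2%) in the Calb2-led cluster and 29.9 CPM and 19 of 125 oligodendrocyte-like cells (15.2%). Slc6a3, the dopamine transporter, was found in 10 of 16 and 1 of 58 cells of these clusters and in 0 of 125 oligodendrocyte-like cells, and Ddc, the next enzyme of the pathway, in 12 of 16 and 5 of 58 cells but also in 49 of 125 oligodendrocyte-like cells (39.2%). The level of Ddc was 299.7 CPM in the Th-led cells, 15.4 CPM in the Calb2-led cells and 125 CPM in oligodendrocyte-like cells. Tac1, the precursor of substance P, was found in 6 of 16 and 0 of 58 cells.

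The number of neuron-like cells with transcripts of Calb2, the calretinin gene, varied between the mixed libraries, which was not tested. Calb2 (chr8:110137502-110168210) had 377, 229, 45.6 and 282 CPM in the mixed libraries and 36.3, 0, 0 and 0 CPM in the SEZ libraries (log2 fold 6.17 ± 1.74, limma voom adjusted p = 0.00840). It was found in 9, 7, 2 and 10 neuron-like cells of mixed libraries 1 to 4, in all 28 of 74 (37.8%), against 8.00% of oligodendrocyte-like cells, and 12 of the 28 also had Th transcripts. Calb1, which marks the calbindin type of periglomerular cells, was found in 4 of 74 cells and Pvalb in 0 of 74. Synpr, Pcp4l1 and Camk2b, genes of granule cells, were found in 68, 65 and 66 of 74 neuron-like cells, against 16, 15 and 9 of 125 oligodendrocyte-like cells. They were found in 16, 16 and 15 of 16 Th-led cells and in 52, 49 and 51 of 58 Calb2-led cells. Their detection therefore does not separate granule from periglomerular types here. Synpr was also among the markers that named the neuron-like class. Penk, the precursor of enkephalin, was found in 44 of 74 neuron-like cells (59.5%), against 7.20% of oligodendrocyte-like cells. The promoter window of Th is printed because its cAMP response element is a well-known feature of the gene. RefSeq places it at chr7:142899946-142900245 on the minus strand of GRCm38.p6, and the sequence reads in the direction of transcription. Capitals mark TGACGTCA, which is its own reverse complement and occurs in 1.79% of all 32851 windows:
Th: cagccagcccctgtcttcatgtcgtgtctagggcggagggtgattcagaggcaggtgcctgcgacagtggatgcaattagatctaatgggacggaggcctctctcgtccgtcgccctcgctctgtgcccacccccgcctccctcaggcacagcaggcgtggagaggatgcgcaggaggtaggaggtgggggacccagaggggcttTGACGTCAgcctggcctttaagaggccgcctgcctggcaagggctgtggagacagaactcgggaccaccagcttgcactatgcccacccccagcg
No measurement here bears on binding at this element.

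**Figure D3:**
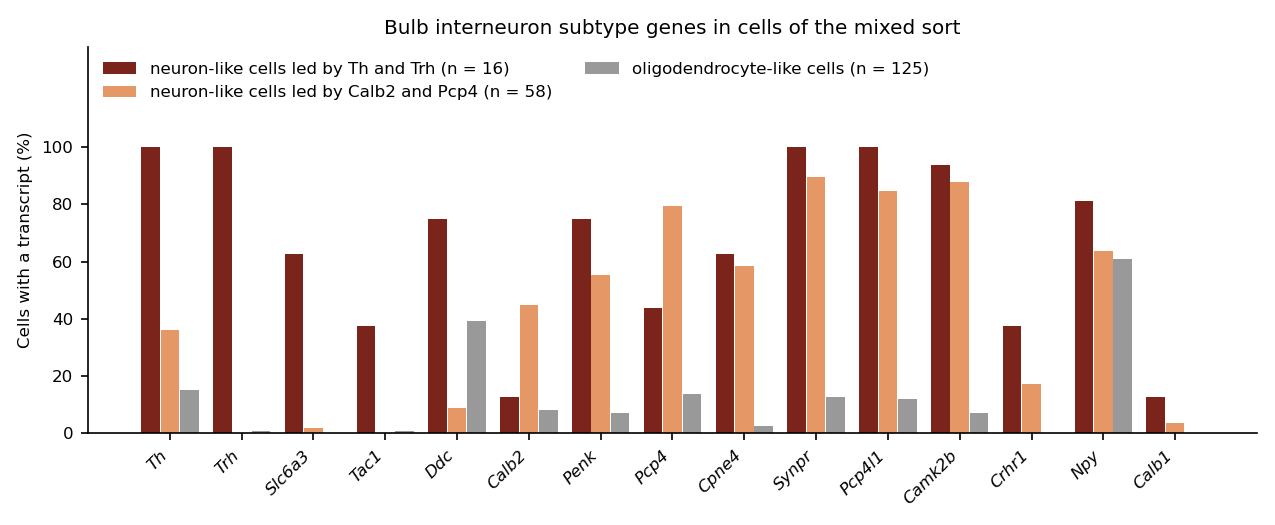
Share of cells with at least 1 transcript of a subtype gene (vertical axis, percent) in the mixed sort, for neuron-like cells led by Th and Trh (16 cells), neuron-like cells led by Calb2 and Pcp4 (58) and oligodendrocyte-like cells (125). Trh, Slc6a3 and Tac1 stand almost alone in the Th-led cells, and Npy reaches 60.8% of oligodendrocyte-like cells.

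Npy had the highest fold of all genes named by rule. This gene of neuropeptide Y (chr6:49822710-49829507) had 1178, 1282, 509 and 532 CPM in the mixed libraries and 0 CPM in all 4 SEZ libraries, at least 9.06 higher on the log2 scale against a floor of 3 transcripts over the SEZ sort. In the mixed sort 73.1% of its transcripts lay in the 23 cells of the cluster led by Vtn, Dcn and Npy, at 10010 CPM. The rest was spread over other clusters at 101 to 396 CPM, and Npy was found in 50 of 74 neuron-like cells (67.6%) and in 76 of 125 oligodendrocyte-like cells (60.8%). Its level was 396 CPM in the Calb2-led and 185 CPM in the Th-led neuron-like cells, and 205 CPM in oligodendrocyte-like cells. Background and expression cannot be told apart from such shares. Mog stood at 2062 CPM in oligodendrocyte-like cells and at 80.2 and 59.5 CPM in the Calb2-led and Th-led neuron-like cells of the mixed sort, while SEZ clusters other than oligodendrocyte-like, with at least 4 cells, stood at 0 to 16.2 CPM. Ttr ran the other way, with 0 to 47.1 CPM over the clusters of the mixed sort, against 130856 CPM in choroid plexus-like cells and 989 to 7403 CPM in other clusters of the SEZ sort. The part of such levels in the calls over whole libraries was not tested.

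**Figure D4:**
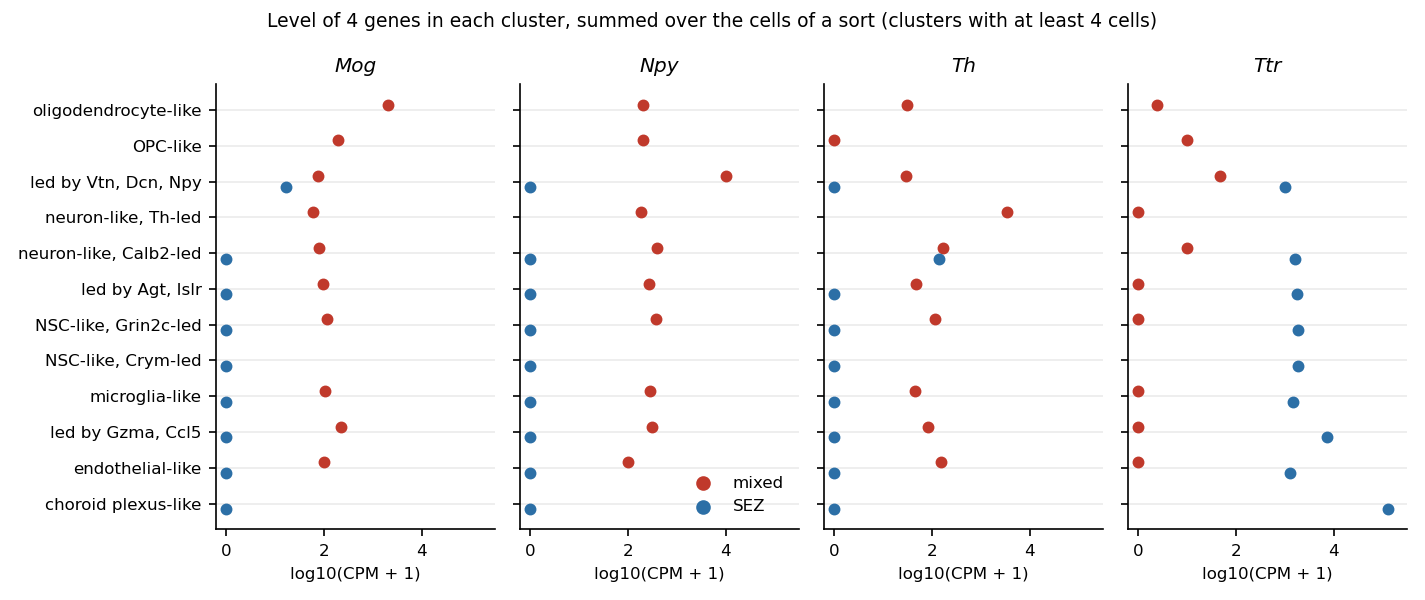
Level of Mog, Npy, Th and Ttr in each cluster, summed over the cells of a sort and given as log10(CPM + 1), mixed sort above SEZ sort within a row. A missing point means fewer than 4 cells. Each gene is highest in 1 cluster, and most other clusters of the same sort share a lower level.

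The 23 mixed and 10 SEZ cells of the cluster led by Vtn, Dcn and Npy differed in their genes. Frzb, a secreted Wnt inhibitor of ensheathing cells, was found in 20 of 23 mixed cells and 2 of 10 SEZ cells, and Sox10 in 21 of 23 and 0 of 10. Dcn was found in 3 of 23 mixed cells and 9 of 10 SEZ cells, and Col1a2, a fibrillar collagen gene of fibroblasts, in 5 of 23 and 10 of 10. When the 2 sorts were clustered alone, 19 of the 23 mixed cells formed a cluster with 0 SEZ cells, named olfactory ensheathing-like by its markers, and 9 of the 10 SEZ cells joined a fibroblast-like one. Over whole libraries, 7 of 8 tested ensheathing markers (14 listed) were higher (median log2 fold 5.69), but Sox10 and Cldn11 of this list are oligodendrocyte genes too. Fabp7, a fatty acid carrier shared by radial glia, astrocytes and ensheathing cells, had 374, 621, 183 and 304 CPM in the mixed libraries against 145, 145, 148 and 143 CPM in the SEZ libraries (log2 fold 1.19 ± 0.27), though it did not pass under spike-in scaling (0.51, adjusted p = 0.0813). It stood at 3811 CPM in the 23 mixed cells of this cluster and at 7.48 CPM in oligodendrocyte-like cells. Vtn, vitronectin, had 148, 223, 495 and 490.0 CPM in the mixed libraries and 12.6, 0, 6.74 and 6.36 CPM in the SEZ libraries, with 95.3% of its transcripts in these 23 cells.

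Genes of quiescent stem cells and astrocytes were lower almost throughout. Of 44 tested list members (47 listed), 43 were lower and 1, Fabp7, was higher, with a median log2 fold of -2.84 and a summed level of 14505 to 24103 CPM in the mixed libraries against 90510 to 98604 CPM in the SEZ libraries. Slc1a2, the main glutamate transporter of astrocytes (chr2:102658659-102790784), had 355, 545, 417 and 875 CPM in the mixed libraries and 6794, 7895, 8105 and 7902 CPM in the SEZ libraries (log2 fold -3.89 ± 0.18, limma voom adjusted p = 2.06e-10). Slc1a3, the glutamate transporter known as GLAST, was lower with 517, 1139, 618 and 1202 CPM in the mixed libraries and 3869, 3970, 3830 and 3808 CPM in the SEZ libraries (-2.26 ± 0.19). Apoe and Cst3, abundant secreted proteins of astrocytes, had log2 folds of -1.83 ± 0.16 and -2.86 ± 0.15. Tnfrsf19, the gene of the stem cell marker Troy, had 39.1, 46.3, 52.6 and 47.5 CPM in the mixed libraries against 139, 185, 128 and 106 CPM in the SEZ libraries (-1.55 ± 0.23). In the mixed sort it was found in 41 of 314 cells, 12 of them among the 23 cells of the cluster led by Vtn, Dcn and Npy. Egfr, a receptor of activated stem cells and progenitors, was lower (-3.54 ± 0.49), and Mki67 was met with 3.01 transcripts in the whole mixed sort and 0 in the SEZ sort, which is at the floor and gives no fold. Of 9 tested genes of activated stem cells and progenitors (24 listed), 3 were higher and 2 lower, beside 22.2% and 21.1% of all tested genes.

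Several genes that mark the SEZ sort were nearly missing from the mixed libraries. Crym, a thyroid hormone-binding protein (chr7:120186380-120202111), had 0, 6.17, 2.50 and 0 CPM in the mixed libraries and 566, 1001, 703 and 880.2 CPM in the SEZ libraries (log2 fold -8.36 ± 0.82, limma voom adjusted p = 5.48e-07). Dkk3, a secreted protein of the Dickkopf family (chr7:112116017-112159057), had 2.04, 3.08, 2.50 and 45.3 CPM in the mixed libraries and 523, 586, 534 and 546 CPM in the SEZ libraries (-6.19 ± 0.64). Six3, a forebrain transcription factor, and the overlapping transcript Six3os1 had log2 folds of -5.31 ± 0.65 and -5.10 ± 0.62. Reads of these overlapping genes may not be separable. Rpe65 and Gm11627 were also among the 10 lowest, at -5.20 ± 0.71 and -4.81 ± 0.60. In the mixed sort Six3 was found in 5 of 17 precursor-like cells and in 0 of 58 and 0 of 16 neuron-like cells, against 72 of 148 SEZ cells of the Crym-led cluster. Notch signalling, which keeps stem cells quiescent, was represented by 13 tested genes of 19 listed, of which 9 were lower and 0 higher (median log2 fold -1.61). Its target Hes5 had 102, 89.7, 101 and 61.8 CPM in the mixed libraries against 434, 559, 463 and 459 CPM in the SEZ libraries (-2.45 ± 0.18), the receptor Notch1 a log2 fold of -2.39 ± 0.23 and the feedback inhibitor Nrarp one of -2.40 ± 0.23. Of 12 tested BMP and Id genes, 7 were lower and 1 higher (median log2 fold -1.19). Id2, Id3 and Id4, transcription inhibitors induced by BMP, were lower (-2.42 ± 0.15, -3.11 ± 0.26 and -4.25 ± 0.42), as was the receptor gene Bmpr1b (-4.06 ± 0.52). Smad7, an inhibitor of BMP and TGF-beta signalling, was the higher one (2.30 ± 0.28), and 85.6% of its transcripts in the mixed sort lay in oligodendrocyte-like cells.

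**Figure D5:**
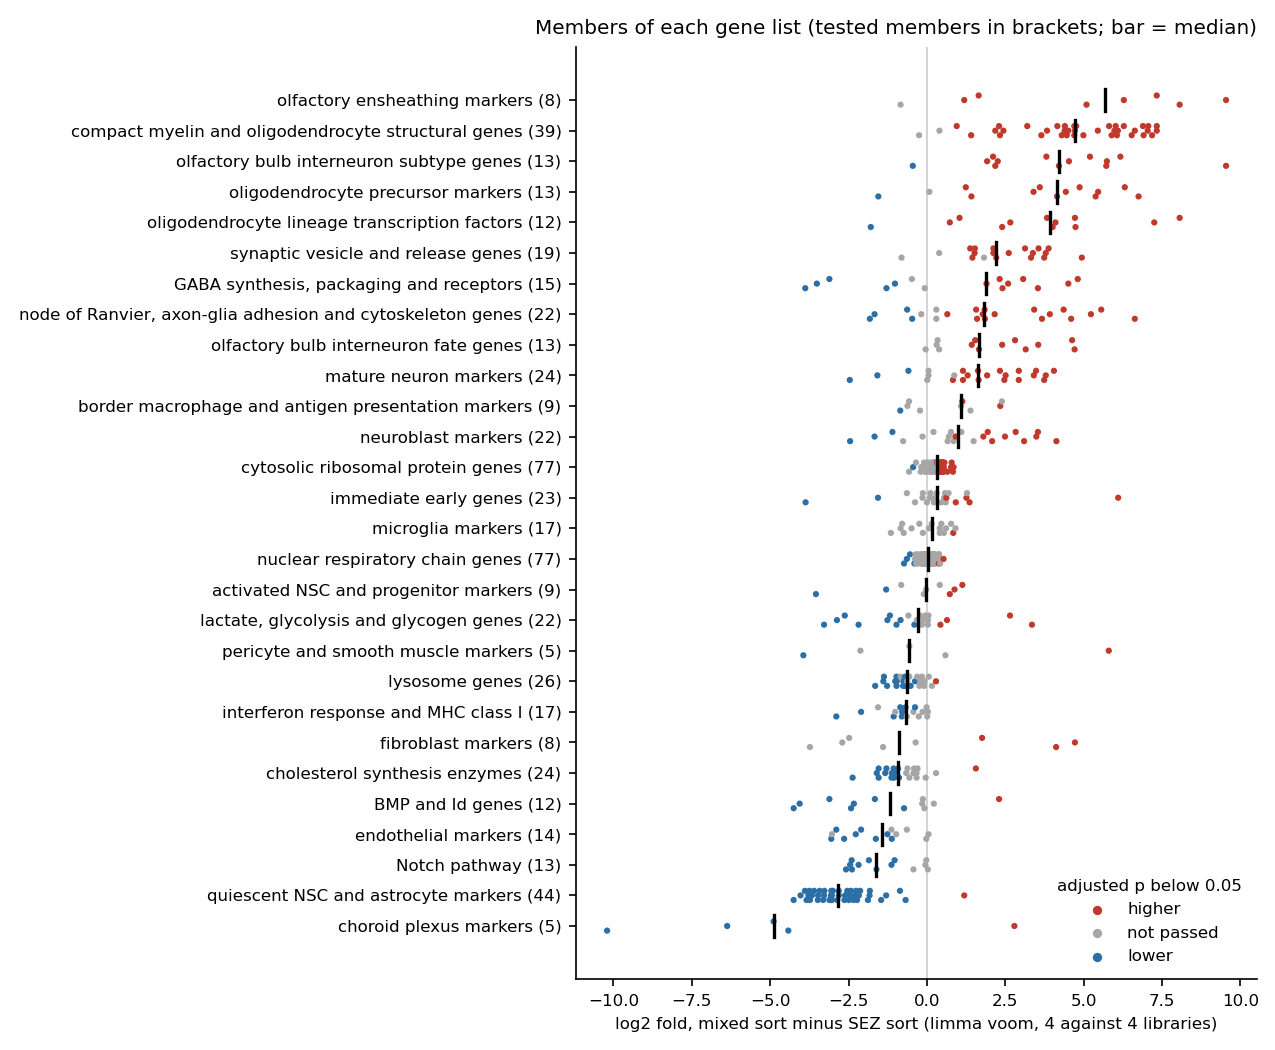
Log2 fold of every tested member of the gene lists (horizontal axis, mixed sort minus SEZ sort), lists with at least 5 tested members ordered by their median (black bar), with the number tested in brackets. Red and blue points passed as higher and lower, grey points did not pass. Ensheathing and myelin genes lie at the top with medians of 5.69 and 4.72, and quiescent stem cell and astrocyte genes and choroid plexus genes at the bottom with medians of -2.84 and -4.89.

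A within-class test was possible only for the cluster led by Agt, Islr and Slc6a9, since the classes named above had too few cells in the other sort. This cluster carried 9 of the NSC-like markers and was left unnamed. Mixed libraries 2, 3 and 4 gave 7, 5 and 6 of its cells, and the SEZ libraries 7, 6, 6 and 12. Of 333 tested genes, 94 passed (limma voom, 28.2%), 51 higher in the mixed sort (15.3%) and 43 lower (12.9%), and the libraries did not overlap for 34.5% of tested genes. Slc1a3 (chr15:8634124-8710764) was higher, at 8616, 7237 and 11514 CPM in the mixed libraries against 1766, 1410, 1937 and 2054 CPM in the SEZ libraries (log2 fold 2.33 ± 0.20), the opposite of its direction over whole libraries. Slc1a2, by contrast, stood at 4456 CPM in the mixed cells and 5540 CPM in the SEZ cells of the cluster. Tspan7, a membrane tetraspanin, was also higher (2.45 ± 0.27), at levels that the NSC-like SEZ cells led by Crym shared (3356 CPM in the mixed cells of the cluster, 3314 CPM in those SEZ cells). Slco1c1, a thyroxine transporter, Hsd11b1, which regenerates active glucocorticoid, and Als2cl were lower (-3.53 ± 0.73, -3.41 ± 0.53 and -3.29 ± 0.58). Agt, which encodes angiotensinogen (chr8:124556534-124569706), and Islr (chr9:58156268-58204306) helped to define the cluster and are given as description. Islr was found in 20 of 20 mixed cells and 4 of 31 SEZ cells, and Agt in 1 of 20 and 28 of 31. Bai1, an adhesion receptor that also led the cluster, was found in 20 of 20 and 17 of 31. Ttr was called lower (adjusted p = 0.0475), with 0 transcripts in the mixed cells and 6768, 656, 1293 and 120.2 CPM in the cells of SEZ libraries 1 to 4. SEZ library 1 stood far above the others. Over the 31 SEZ cells Ttr was at 1742 CPM, against 1909 CPM in the Grin2c-led SEZ cells. The part of such a plate-wide level in this call was not tested, and Ttr lost its call without mixed library 2 (adjusted p = 0.169) or 3 (0.155), and without SEZ library 1, 2 or 3 it fell under the filter. When the 2 sorts were clustered alone, 19 of the 20 mixed cells and 30 of the 31 SEZ cells fell into separate clusters.

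Other cell types differed less or rested on few libraries. Over all tested genes 22.2% were higher and 21.1% lower, and several of the small lists here lie near those shares. Of 5 tested choroid plexus markers, 4 were lower and Aqp1 was higher. Ttr, the thyroid hormone carrier of the choroid plexus, had 8.17, 12.3, 5.00 and 0 CPM in the mixed libraries and 27185, 3412, 7239 and 2269 CPM in the SEZ libraries (log2 fold -10.20 ± 3.41, limma voom adjusted p = 0.0231), and lost the call without mixed library 1 (adjusted p = 0.103), 2 (0.106) or 3 (0.0923). The high value belongs to SEZ library 1, which held 7 of 11 choroid plexus-like cells, and Prlr and 1500015O10Rik were likewise highest there. Of 14 tested endothelial markers, 8 were lower and 0 higher. Of 17 tested microglia markers, 1 was higher and 0 lower, and of 9 tested genes of border macrophages and antigen presentation, 2 were higher and 1 lower. Cd74, a chaperone of MHC class II, had 199.6, 590.4, 198 and 230.0 CPM in the mixed libraries and 0, 175, 285 and 136 CPM in the SEZ libraries, which overlapped (2.39 ± 1.02, adjusted p = 0.0682). It passed without SEZ library 2 (adjusted p = 0.0435) or 3 (0.0226), or with all 28 libraries in 1 fit (0.0236). With the 2 sorts clustered alone, 18 of the 27 microglia-like cells of the mixed sort fell into a microglia-like cluster and 9 into one led by Ccl5, Ms4a4b, Ccr7 and Cd79b, the first a chemokine and the last a B cell receptor subunit. Among all 27, Cd74 was found in 17 cells, Csf1r, the receptor microglia depend on, in 18 and C1qa, a complement gene of microglia, in 4, while Mrc1, Pf4 and Ms4a7, genes of border macrophages, were found in 0 of 27. Of 5 tested pericyte markers, 1 was higher and 1 lower, of 8 tested fibroblast markers 3 were higher and 0 lower, and of 3 tested ependymal markers 2 were higher and 1 lower. The higher fibroblast-listed genes Ptgds (4.12 ± 0.43) and Apod (4.72 ± 0.42) stood at 7745 and 2181 CPM in oligodendrocyte-like cells and at 6066 and 9322 CPM in the mixed cells of the cluster led by Vtn, Dcn and Npy, and Vtn was the higher pericyte-listed gene. Red blood cell genes were at 0 in all 8 libraries. Xist, a noncoding RNA that silences an X chromosome in female cells, had 217, 319.7, 203 and 291 CPM in the mixed libraries and 429, 685, 572 and 796 CPM in the SEZ libraries.

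The list counts that follow stand beside 22.2% higher and 21.1% lower over all tested genes, and some lie near those shares. Cholesterol synthesis enzymes were lower for 13 of 24 tested members and higher for 1 (median log2 fold -0.91). Msmo1, a sterol demethylating enzyme, averaged 202 ± 84.4 CPM in the mixed libraries against 967 ± 43.3 CPM in the SEZ libraries (-2.37 ± 0.23), Fdft1, squalene synthase, was lower (-1.54 ± 0.16), and the sterol isomerase Ebp was higher (1.56 ± 0.27). Hmgcs1, which makes the HMG-CoA that feeds the pathway, did not pass (-0.33 ± 0.15, adjusted p = 0.0845), though it did under spike-in scaling (-1.04, adjusted p = 1.73e-04). Summed over the list, the level was 1840 CPM in oligodendrocyte-like cells of the mixed sort, 726 CPM in its neuron-like cells and 3592 CPM in NSC-like cells of the SEZ sort. Of 22 tested genes of glycolysis, lactate and glycogen, 9 were lower and 4 higher, among the lower Aldoc, the aldolase of astrocytes (-3.28 ± 0.18), and Pygb, a glycogen phosphorylase (-2.87 ± 0.19). Lysosome genes were lower for 14 of 26 and higher for 1, with Psap at -0.97 ± 0.12, and interferon and MHC class I genes were lower for 8 of 17 and higher for 0. Node of Ranvier, axon-glia and cytoskeleton genes were higher for 15 of 22 and lower for 4, among the higher the tubulin gene Tubb4a (5.56 ± 0.40) and Mapt, which encodes tau (2.16 ± 0.12). Immediate early genes were higher for 5 and lower for 2 of 23. Of 77 tested ribosomal protein genes, 29 were higher and 1 lower, but 0 were higher and 33 lower under spike-in scaling. Of 77 tested respiratory chain genes, 2 were higher and 4 lower, and 0 and 55 under spike-in scaling. The myelin list kept 36 higher calls under that scaling, with 1 lower, the synaptic list 15, with 1 lower, and the quiescent stem cell and astrocyte list 43 lower calls, with 0 higher.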

How the data were processed

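Single cells were sorted into wells and sequenced by SORT-seq, which counts molecules with random barcodes, and the submitters' processing notes name BWA 0.6.2-r126 and the mm10 build. The deposited tables hold another unit than reads: the authors' values are transcript counts corrected for random-barcode collisions, and 4800995 of 4801006 values above 0 matched that correction (tolerance 1e-06). Wells with at least 1000 transcripts over rows other than spike-ins were kept. No doublet caller was run on these sorted wells. Cells of all 28 libraries were clustered with scanpy 1.11.5 (2000 variable genes, 30 components, 15 neighbours, Leiden resolution 1.0, igraph 0.11.9), and a cluster was named from listed markers among its 50 leading genes. Transcripts were summed per library, filtered (a level worth at least 10 transcripts in a library of median size, reached in as many libraries as the smaller group has, which is 4 for whole libraries, and 15 transcripts in all), scaled by trimmed mean of M values and tested with limma voom 3.58.1 in R 4.3.3, with Benjamini-Hochberg adjustment over all tested genes. The step was tested on simulated data. A test inside a cluster used libraries with at least 5 of its cells. CPM per library, also in the test inside a cluster, is a gene's transcripts per 1000000 of the library total after trimmed-mean scaling. CPM over the pooled cells of a cluster or class is its unscaled share of their summed transcripts, per 1000000. The 2 kinds of value are not on exactly the same scale. Shares were compared by 2-sided exact permutation tests over libraries, adjusted over 8 classes. The confidence that floors give covers counting error only, with 3 transcripts or cells as the floor. Sequences came from RefSeq and gene positions from GENCODE (GRCm38).

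Named genes were the 10 highest and 10 lowest folds among non-overlapping genes of at least 100 CPM, the most abundant members of each list that passed in either direction or did not pass, and genes of the sorts. Cell counts of further genes in single clusters were chosen after their values were seen. The members, gene lists and markers were chosen with earlier results of these data known. Alternatives were other scalings, filters, cell minimums, thinning, tests, clusterings, a replicate block and leaving out each library. Same-numbered libraries of the sorts did not deviate together, so the numbers were not taken as pairs. A few results are not reported here.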

Additional observations from a re-analysis of the deposited data

Results flagged for a closer look

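In 180 groups of 4 libraries, 12 had a library whose gap to its nearest neighbour exceeded Dixon's 95% critical value, and chance gives about 1 in 20. Mixed library 2 was low for Slc32a1 at 198 CPM (288, 294 and 278 in the other mixed libraries) and high for Cd74 at 590.4 CPM (199.6, 198 and 230.0). It also held an NSC-like share of 0% (2.41%, 2.70% and 2.63% in the other mixed libraries) and a neuroblast-like share of 2.47% (0% in the others). Mixed library 4 was high for Dkk3 at 45.3 CPM (2.04, 3.08 and 2.50), mixed library 1 for Rpe65 at 18.4 CPM (3.08, 0 and 0) and mixed library 3 for 1500015O10Rik at 5.00 CPM (0 in the others). SEZ library 1 was high for Enpp2 at 5006 CPM (858, 1293 and 637), for Dlx1 at 43.1 CPM (4.24, 4.47 and 0) and for the choroid plexus-like share at 7.87% (1.18%, 2.25% and 1.16%). It was low for Slc1a2 at 6794 CPM (7895, 8105 and 7902). SEZ library 2 was high for Id3 at 613 CPM (425, 456 and 446).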

How the results depend on the processing

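The 3528 passing genes became 994 of 1813 tested when cells were thinned to 1000 transcripts, where fewer genes could be tested, and lay between 3122 and 3535 when each library was left out. With library number as a replicate block 3371 passed, 3265 of them called the same way without the block. The numbers gave correlations of 0.0535, 0.0154, 0.0063 and -0.0167 between same-numbered libraries. Under the replicate block, shares were tested by paired sign flips, whose smallest p is 0.125, so the differences (in percentage points) of oligodendrocyte-like 39.1, precursor-like 5.38, mature neuron-like 22.5, microglia-like 6.67, NSC-like -66.3 and choroid plexus-like -3.11 could not pass (adjusted p = 0.167). At a minimum of 2000 transcripts the microglia-like difference was 2.12 and the neuroblast-like one -0.221, and the cause was not tested. With the 2 sorts clustered alone the neuroblast-like one was 5.57, since 21 of 58 mixed and 4 of 4 SEZ cells of the Calb2-led neuron-like cluster moved into that class. The NSC-like difference was -58.8 at a minimum of 2000 transcripts and -57.4 with the 2 sorts clustered alone. Leaving out each library gave -3.76 to -1.53 for choroid plexus-like cells, which did not pass without any 1 mixed library (-3.11), where 3 libraries against 4 limit the exact test. It gave -0.562 to 0.261 for neuroblast-like cells, with reversed values of -0.562 and -0.132, and -591 to 52.1 transcripts per cell. The 94 passing genes of the cluster led by Agt, Islr and Slc6a9 became 63 without SEZ library 4 and up to 102 without mixed library 3. Cd74 passed with all 28 libraries in 1 fit (adjusted p = 0.0236), with cells scaled to the same total (0.00290) or thinned (1.14e-04), as did Enpp2 with cells so scaled (0.0294) or thinned (0.00181). Of the genes named, 1500015O10Rik lost its call without any 1 mixed library and Prlr without mixed library 2 or 3. Tests inside NSC-like and oligodendrocyte-like cells were not run, since 1 of the sorts had too few of their cells.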
